A study of Homo sapiens with 6 samples.

Results

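The clustered histone genes were taken as every row of the deposited table whose symbol starts with HIST1H, HIST2H, HIST3H or HIST4H, which gave 58 of 21293 genes. These symbols name the histone genes that lie together in the HIST1 cluster of chromosome 6 and in smaller clusters elsewhere. By name they are genes of the linker histone H1 (6) and of the core histones H2A (13), H2B (18), H3 (10) and H4 (11). HIST2H2BC, counted here with H2B, is annotated as a pseudogene, and HIST2H2BA is H2BP1 in current naming. By cluster, 47 belonged to HIST1, 7 to HIST2, 3 to HIST3 and 1 to HIST4. A mean of at least 10 normalized counts over the 6 libraries was reached by 16 of the 58 genes (27.6%), against 67.6% of all genes.

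Messenger RNA was sequenced from H2087-LCC cells, a population of a human lung adenocarcinoma cell line that had been selected in mice for its ability to stay latent. Cells were kept with SB505124 (SB), which blocks the type I receptor of TGFβ, for 3 days, with TGFβ for 3 days, or with TGFβ for 7 days, and each of the 3 groups had 2 libraries. The study describes the libraries of a group as technical replicates, so the standard errors and p-values cover the spread between libraries and not that between cultures. SB was sampled at 3 days only, so that 7 days of TGFβ and longer time in culture cannot be told apart, and both comparisons with SB used the same SB libraries.

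Most clustered histone genes are switched on as cells copy their DNA in S phase, when new nucleosomes have to be built. Their mRNAs are unusual in that they normally end in a stem-loop, bound by SLBP, and not in a poly(A) tail, and they are degraded when DNA synthesis stops. Some members, HIST1H2BD, HIST1H2AC, HIST1H1C and HIST2H2BE among them, are known to make polyadenylated mRNA as well, a form that cells can accumulate as they differentiate or leave the cell cycle. The study names a library kit that selects poly(A) RNA, without stating the selection itself. The values below are therefore taken as those of the polyadenylated forms and of whatever tail-less mRNA came through the selection. How much of each was present was not tested.

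The values are normalized counts, which are reads per gene divided by the authors' factor for the size of each library. They summed to between 34306283 and 36340734 per library, and 1 read was worth 0.896 to 1.10 normalized counts. The epithelial markers KRT8 and KRT18 were at 31757 or more in every library, while the leukocyte gene PTPRC was at 0 to 4 and the T cell gene CD3E at 0 to 1. The monocyte gene CD14 was at 1 to 8 and CD68, a lysosomal protein, at 4368 to 5113. Of the endothelial markers CDH5 and VWF were at 20 or less, PECAM1 at 36 to 67 and KDR at 26 to 225. EPCAM fell with treatment, from 10180 and 9106 with SB to 2988 and 3277 after 7 days, and CDH1 (E-cadherin) was at 371 and 635 with SB and at 10 and 9 after 7 days. KRT7 went the other way, from 5860 and 6183 with SB to 15440 and 18905 after 3 days and 13979 and 11230 after 7 days, and KRT19 was at 3785 to 6809. Of the 6 epithelial markers 1 was higher and 3 were lower after 7 days against SB.

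The 5 members with a mean of at least 100 were HIST1H2BK, HIST1H2BD, HIST1H1C, HIST2H2BE and HIST1H2AC. The 150 bases before the start of their canonical transcripts, from the GRCh37 genome on each gene's own strand, are shown because these genes carry most of the counts of the clustered histone genes and 4 of them changed together. Capitals mark the octamer ATTTGCAT, which is bound by the POU factor OCT1, the letters CCAAT of the CCAAT box and the letters TATAAA of the TATA box, each on either strand.
HIST1H2BK: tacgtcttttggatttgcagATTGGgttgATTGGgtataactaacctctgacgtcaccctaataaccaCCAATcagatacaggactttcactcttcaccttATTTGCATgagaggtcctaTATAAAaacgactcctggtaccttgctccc
HIST1H2BD: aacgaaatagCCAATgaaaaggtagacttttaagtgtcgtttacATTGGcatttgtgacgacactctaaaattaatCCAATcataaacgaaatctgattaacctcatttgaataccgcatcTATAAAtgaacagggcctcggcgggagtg
HIST1H1C: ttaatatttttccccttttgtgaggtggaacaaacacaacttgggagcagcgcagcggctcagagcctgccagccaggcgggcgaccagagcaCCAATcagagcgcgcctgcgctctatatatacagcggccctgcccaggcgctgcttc
HIST2H2BE: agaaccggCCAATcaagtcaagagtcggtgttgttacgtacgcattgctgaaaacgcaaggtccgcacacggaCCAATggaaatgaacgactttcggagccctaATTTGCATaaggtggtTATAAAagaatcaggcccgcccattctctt
HIST1H2AC: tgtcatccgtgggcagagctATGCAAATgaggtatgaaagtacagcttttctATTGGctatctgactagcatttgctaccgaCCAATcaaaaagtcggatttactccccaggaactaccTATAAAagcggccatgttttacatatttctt

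The windows were chr6:27114635-27114784 on the minus strand for HIST1H2BK, chr6:26158200-26158349 on the plus strand for HIST1H2BD, chr6:26056699-26056848 on the minus strand for HIST1H1C, chr1:149858233-149858382 on the minus strand for HIST2H2BE and chr6:26124250-26124399 on the plus strand for HIST1H2AC. The octamer was found in the windows of HIST1H2BK, HIST2H2BE and HIST1H2AC, and its exact letters were not found in those of HIST1H2BD and HIST1H1C. Windows were taken for the 54 protein-coding members matched to the annotation, which leaves out the pseudogene HIST2H2BC. Of these 54 windows, 14 held the octamer (25.9%), against 0.916% of the windows of 19876 protein-coding genes. It occurred in 10 of 14 H2B windows, in 4 of 13 H2A windows and in none of the 6 H1, 10 H3 and 11 H4 windows. CCAAT was present in 83.3% of the members' windows and in 26.5% of all windows, and TATAAA in 59.3% and 6.66%. Among the members, CCAAT stood in every H1, H2A, H2B and H3 window but in only 2 of 11 H4 windows. These matches describe letters and not binding.

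The H2B genes made up the largest measured group. Of the 18 H2B genes 9 had a mean of at least 10, the pseudogene HIST2H2BC among them, and 3 a mean of at least 100. Of the other types, 3 of 13 H2A, 2 of 6 H1, 1 of 10 H3 and 1 of 11 H4 genes reached 10. By cluster, 12 of 47 HIST1 and 4 of 7 HIST2 genes did so, and none of the HIST3 and HIST4 genes. A further 36 members lay above 0 and under 10, of which the highest value in any library was 14. The remaining 6 members (HIST1H2BG, HIST1H2AJ, HIST1H2BL, HIST1H2BI, HIST1H2BM and HIST3H3) were at 0 in every library. The members with a mean under 10 together summed to between 70 and 114 per library, and their sums overlapped between all groups.

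**Figure D1:**
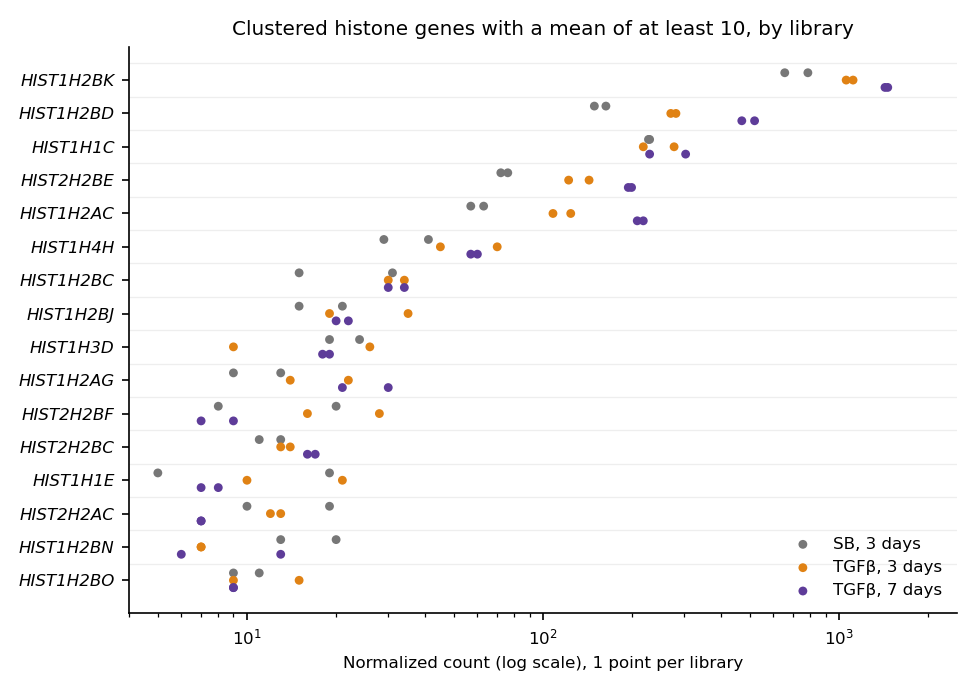
Normalized counts (log scale) of the 16 clustered histone genes with a mean of at least 10, with 1 point per library and the groups in gray (SB), orange (TGFβ, 3 days) and purple (TGFβ, 7 days). HIST1H2BK lies between 655 and 1459, and the groups are separate and in order for HIST1H2BK, HIST1H2BD, HIST2H2BE and HIST1H2AC but overlap for HIST1H1C.

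All 58 members together summed to 1614 and 1400 normalized counts with SB, to 2093 and 2280 after 3 days and to 2923 and 2894 after 7 days. The sum of each TGFβ library lay above both SB libraries, and the 7-day sums lay above the 3-day sums. HIST1H2BK alone made up 46.8% to 50.5% of the sum in each library, and the top 5 genes 80.1% to 90.1%. Without HIST1H2BK the sums were 830 and 745 with SB, 1037 and 1166 after 3 days and 1495 and 1435 after 7 days, in the same order.

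HIST1H2BK (H2BC12 in current naming) encodes an H2B protein and is a single exon of 495 bases at chr6:27114140-27114634 on the minus strand. It was the most abundant member also per length, at a mean of 2187 normalized counts per kb of annotated exon, followed by HIST1H2BD at 358, HIST1H1C at 338, HIST1H2AC at 77.7 and HIST2H2BE at 60.4. Its values were 784 and 655 with SB, 1056 and 1114 after 3 days, and 1428 and 1459 after 7 days. The 3 groups did not overlap and stood in the order SB, 3 days, 7 days. The means were 720 ± 91.2 (SD, n = 2), 1085 ± 41.0 and 1444 ± 21.9, so that the level after 7 days was 2.01 times that with SB.

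HIST1H2BD (H2BC5), a second H2B gene, spans chr6:26158350-26171577 on the plus strand and has 2 annotated transcripts, the longer with 2 exons and 789 bases. It had 149 and 163 normalized counts with SB, 270 and 281 after 3 days, and 469 and 518 after 7 days. Again the groups were separate and in the same order, and the ratio of 7 days to SB was 3.16. Its region is overlapped by 4 other annotated genes, and since the library kit does not mark strand, reads of overlapping genes on opposite strands cannot be told apart.

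HIST2H2BE (H2BC21) lies in the HIST2 cluster as 1 exon of 2224 bases at chr1:149856009-149858232 on the minus strand. Its H2B mRNA was at 76 and 72 with SB, 143 and 122 after 3 days and 199 and 194 after 7 days, and the groups did not overlap. HIST1H2AC (H2AC6), an H2A gene at chr6:26124373-26139344 on the plus strand with 3 annotated transcripts of up to 1668 bases, had 57 and 63 normalized counts with SB, 108 and 124 after 3 days and 218 and 208 after 7 days. This was the largest rise among the members tested, with a 7-day mean 3.55 times that of SB. HIST2H2BE rose 2.66-fold.

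HIST1H1C (H1-2), a linker histone gene of 731 bases at chr6:26055968-26056698 on the minus strand, differed from this pattern. Its values were 227 and 229 with SB, 218 and 277 after 3 days and 303 and 229 after 7 days, and they overlapped between groups. The difference between 7 days and SB was 0.21 on the log2 scale with a 95% interval of -0.18 to 0.60 (adjusted p = 0.347), an interval that ended below the log2 differences of 1.01 to 1.81 estimated for the other 4.

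Differences were tested with limma on log2(normalized count + 1) for the 14395 genes whose mean reached 10, with Benjamini-Hochberg adjustment over all of them and a threshold of 0.05. Between 3 days of TGFβ and SB, 4 of the 16 members were higher (14.9% of all genes tested were) and 0 were lower (14%), and 29% of all genes were called in either direction. The 4 were HIST1H2AC with a log2 fold change of 0.94 ± 0.19 (SE; adjusted p = 0.00261), HIST2H2BE with 0.83 ± 0.18 (adjusted p = 0.00484), HIST1H2BD with 0.82 ± 0.14 (adjusted p = 0.00112) and HIST1H2BK with 0.60 ± 0.11 (adjusted p = 0.00197). The median over the 16 members was 0.53, against -0.02 over all genes tested. Without SB replicate 2 the members' median was 0.10, and without 3-day replicate 2 it was 0.23. At an unadjusted p under 0.05 there were 6 members, the other two being HIST1H4H (0.69 ± 0.29, adjusted p = 0.0956) and, in the lower direction, HIST1H2BN (-1.10 ± 0.47, adjusted p = 0.0997). HIST2H2BE lost its call when TGFβ 3-day replicate 1 was left out (adjusted p = 0.0590).

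Between 7 days of TGFβ and SB, 6 of 16 members were higher (27.7% of all genes tested were) and 0 were lower (26.9% of all genes). The median of the members was 0.33, and that of all genes tested was at -0.00081. Without SB replicate 2 the members' median was 0.13, and without SB replicate 1 it was 0.52. HIST1H2AC rose by 1.81 ± 0.19 (adjusted p = 8.40e-06), HIST1H2BD by 1.65 ± 0.14 (adjusted p = 1.98e-06), HIST2H2BE by 1.40 ± 0.18 (adjusted p = 5.15e-05) and HIST1H2BK by 1.01 ± 0.11 (adjusted p = 1.73e-05) on the log2 scale. All 6 members with an unadjusted p under 0.05 were the 6 that were called. The share of members called in either direction was thus below the 54.5% of all genes, and 11 of the 16 members had means between 10 and 100.

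The other two members called at 7 days were low. HIST1H2AG, an H2A gene, had 13 and 9 normalized counts with SB, 14 and 22 after 3 days and 30 and 21 after 7 days, a difference of 1.14 ± 0.39 between 7 days and SB (adjusted p = 0.0256). HIST1H4H, an H4 gene and the only member of that type with a mean of at least 10, had 41 and 29 with SB, 70 and 45 after 3 days and 57 and 60 after 7 days, a difference of 0.74 ± 0.29 (adjusted p = 0.0450). For both genes every TGFβ library lay above both SB libraries, and the 7-day libraries overlapped those of 3 days. HIST1H4H was not called without SB replicate 2 (adjusted p = 0.197), 7-day replicate 1 (0.118) or 7-day replicate 2 (0.160), and HIST1H2AG was not called without SB replicate 2 (0.096) or 7-day replicate 1 (0.172).

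**Figure D2:**
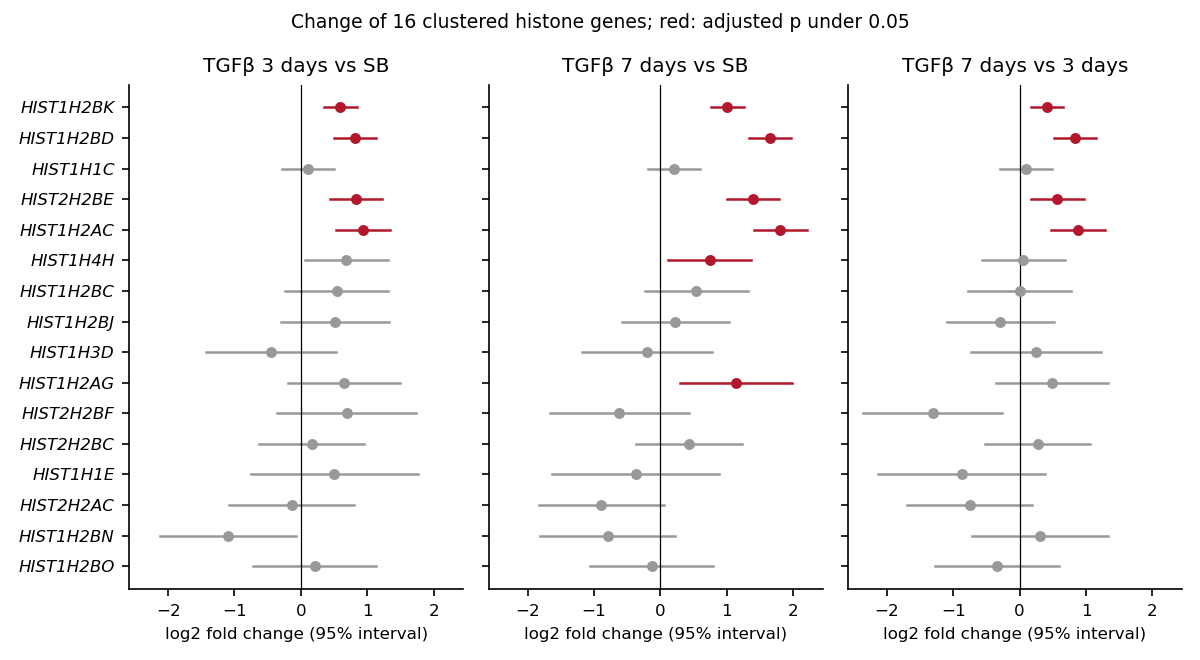
Log2 fold changes of the 16 members with a mean of at least 10 in the 3 comparisons, with 95% intervals from limma as bars, red where the adjusted p was under 0.05. HIST1H2BK, HIST1H2BD, HIST2H2BE and HIST1H2AC lie to the right of 0 in each comparison, while members with low means have wide intervals, most of them across 0.

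From 3 to 7 days of TGFβ, 4 of 16 members were higher (17% of all genes tested were) and 0 were lower (16.2%), and 33.2% of all genes were called in either direction. The comparison asks whether the change went on after day 3, and both of its groups were treated with TGFβ. HIST1H2AC rose by a further 0.87 ± 0.19 (adjusted p = 0.00441), HIST1H2BD by 0.84 ± 0.14 (adjusted p = 0.00135), HIST2H2BE by 0.57 ± 0.18 (adjusted p = 0.0309) and HIST1H2BK by 0.41 ± 0.11 (adjusted p = 0.0165). At an unadjusted p under 0.05 there were 5 members, these 4 and, in the lower direction, HIST2H2BF. The median of the members was 0.17 and that of all genes tested 0.02. Without 7-day replicate 1 the members' median was 0.0033, and without 3-day replicate 1 it was 0.06. The calls of HIST1H2BK and HIST2H2BE were lost when a TGFβ library was left out, with adjusted p between 0.065 and 0.196 for HIST2H2BE whichever of the 4 it was, and between 0.0811 and 0.109 for HIST1H2BK without 3-day replicate 1 or either 7-day library.

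These 4 genes were the same in all 3 comparisons. Being higher in all 3 was found in 4 of 16 members and in 5.23% of all genes tested, and libraries in the order SB, 3 days, 7 days with no overlap in 4 of 16 members and in 15.4% of all genes. The 3 comparisons share libraries pairwise, so they do not count as separate observations.

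Among the members with a mean of at least 10 that were not called, some overlapped between groups in every comparison and others did not. HIST1H2BN was at 20 and 13 with SB, 7 and 7 after 3 days and 13 and 6 after 7 days. HIST1H1E was at 19 and 5, then 10 and 21, then 7 and 8. The pseudogene HIST2H2BC was at 13 and 11, then 13 and 14, then 16 and 17. HIST1H2BC had 31 and 15 normalized counts with SB, 30 and 34 after 3 days and 34 and 30 after 7 days, and without SB replicate 1 it was called higher at both times (adjusted p = 0.0385 and 0.0232), whereas without SB replicate 2 its log2 fold change was 0.04 at both. HIST1H2BJ had 21 and 15, then 19 and 35, then 20 and 22, and HIST1H3D, the only H3 gene with a mean of at least 10, had 19 and 24, then 9 and 26, then 18 and 19. HIST2H2BF was at 20 and 8 with SB, 28 and 16 after 3 days and 7 and 9 after 7 days; it was the member with the lowest log2 fold change from 3 to 7 days, -1.31 ± 0.48 (adjusted p = 0.0541), and it was called lower when only the 4 TGFβ libraries were fitted (adjusted p = 0.0229) or without SB replicate 1 or 2 (0.0263 and 0.0210). HIST2H2AC was at 19 and 10 with SB, 12 and 13 after 3 days and 7 and 7 after 7 days, a log2 difference of -0.89 between 7 days and SB (adjusted p = 0.1003; 0.0244 without SB replicate 2).

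H2A and H2B genes of the clusters often lie head to head and share the stretch between their starts. There were 9 such pairs among the 55 members matched to the annotation, with 194 to 251 bases between the starts. Pairs of HIST1H2BF, HIST1H2BG and HIST2H2BA could not be looked for, as these members had no matched position. In 0 of the 9 pairs did both genes have a mean of at least 100. The pairs described here were therefore chosen after their values were seen. HIST1H2BK and HIST1H2AH start 251 bases apart, and HIST1H2AH was at 0 and 1 with SB, 2 and 0 after 3 days and 1 and 0 after 7 days, next to the highest member of all. HIST1H2AC starts 246 bases from HIST1H2BC, whose window holds the same octamer read from the other strand. For HIST1H2BC, 7 days of TGFβ and SB differed by 0.54 on the log2 scale with a 95% interval of -0.23 to 1.32. HIST2H2BE starts 236 bases from HIST2H2AC, whose values were lower after 7 days than in either SB library. In HIST1H2AG and HIST1H2BJ, 248 bases apart, the means over all libraries were 18.2 and 22. The difference in response between the genes of a pair was not tested.

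**Figure D3:**
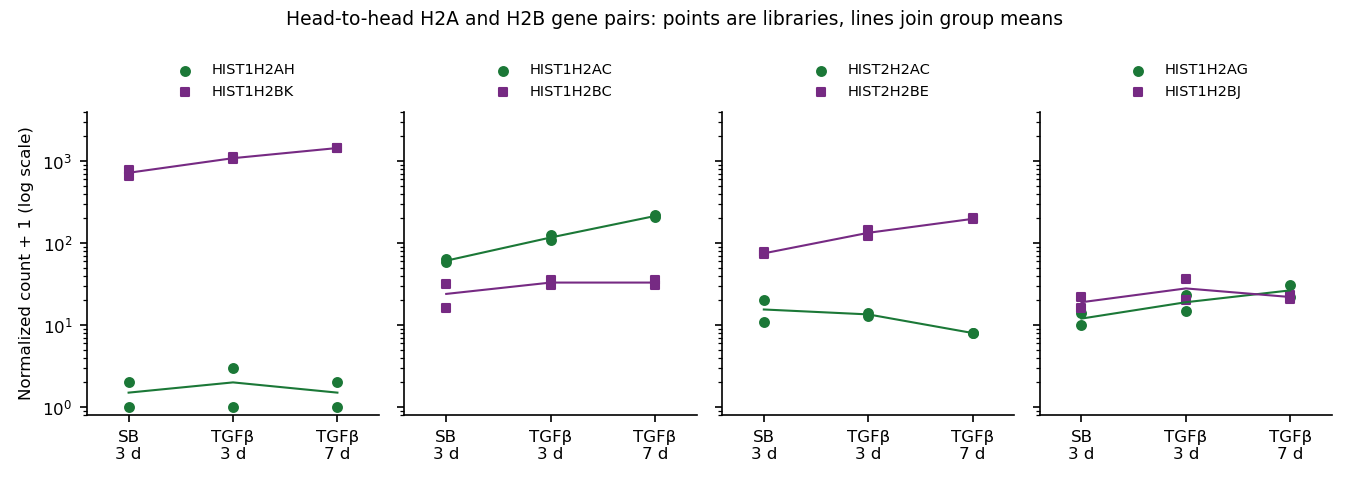
Normalized count + 1 (log scale) of the H2A gene (green circles) and H2B gene (purple squares) of 4 head-to-head pairs by group, with points for libraries and lines through group means. HIST1H2AH stays at 2 or fewer normalized counts beside HIST1H2BK at 655 to 1459, and in the pairs of HIST1H2AC and HIST2H2BE the higher gene of the pair rises from SB to 7 days.

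The annotated structure of the members was set beside their level, with no test. Of the 16 members with a mean of at least 10, 7 had an annotated transcript with more than 1 exon (43.8%), against 6 of 39 (15.4%) of those under 10 that could be matched to the annotation. A transcript of at least 1000 bases was annotated for 5 of 16 (31.3%) and 6 of 39 (15.4%). The canonical transcripts were of about equal length, with medians of 495 and 482 bases. As only uniquely mapped reads were counted, copies with like sequence could lose reads. Among the 5 highest members, 83.2% to 100% of the 50-base stretches of the canonical transcript occurred in no other member. The median over the 16 was 91.7%, with a range of 58.5% to 100%. Over the 39 matched members with a mean under 10 the median was 100%, with a range of 7.4% to 100%. The part of lost reads in the levels was not tested. Of the 16, 8 were overlapped by another annotated gene.

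Of 14 clustered histone genes listed as known to make polyadenylated mRNA, 12 were in the table and 9 had a mean of at least 10. Of these 9, the same 4 were higher in each comparison and 0 lower, where 14.9%, 27.7% and 17% of all genes were higher. The list was chosen with earlier results of these data known, so these counts describe it and do not test it. HIST1H1C, which belongs to the list, was among the 5 that were not called. The study's signature of quiescence genes holds 9 clustered histone symbols, of which 5 were in the table and 4 had a mean of at least 10. Of these 4, HIST2H2BE was higher in all 3 comparisons, as were 5.23% of all genes tested. In each single comparison 14.9%, 27.7% and 17% of all genes were higher. HIST1H1C, HIST1H2BC and HIST2H2AC were not called in any comparison.

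The factors that make and process histone mRNA were tested alongside. Of 16 such genes, 0 were higher and 1 lower after 3 days against SB, and 2 were higher and 5 lower after 7 days, with medians of -0.08 and -0.16. Of all genes, 14.9% were higher and 14% lower after 3 days, and 27.7% were higher and 26.9% lower after 7 days. SLBP, which binds the stem-loop of the tail-less mRNAs, had 3830 and 3323 normalized counts with SB, 2820 and 2494 after 3 days and 2017 and 2043 after 7 days. It fell by 0.81 ± 0.10 on the log2 scale between SB and 7 days (adjusted p = 3.73e-05), and its groups did not overlap. NPAT, the coactivator of histone gene transcription in S phase, had 2079 and 2216 with SB and 2643 and 2659 after 7 days, a rise of 0.30 ± 0.10 (adjusted p = 0.0177). ERI1, an exonuclease that trims the stem-loop end, fell by 0.64 (adjusted p = 0.000448), and SRRT, which joins the cap-binding complex, fell by 0.53 (adjusted p = 0.00160). CASP8AP2 (FLASH), needed to cleave histone pre-mRNA, rose by 0.29 (adjusted p = 0.0314).

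Histone genes outside the clusters, which are expressed independently of DNA replication and make ordinary polyadenylated mRNA (H2AFX also makes a stem-loop form), were tested in the same fit. Of 12 such genes 9 were tested. After 3 days 1 was higher and 3 lower (14.9% and 14% of all genes tested). After 7 days 0 were higher and 5 lower (27.7% and 26.9% of all genes tested). The medians were -0.26 and -0.42. H2AFX, the H2A variant phosphorylated at DNA breaks, had 2051 and 1800 with SB and 1114 and 894 after 7 days, a fall of 0.94 ± 0.14 on the log2 scale (adjusted p = 0.000127). CENPA, the H3 variant of centromeres, fell by 0.76 (adjusted p = 4.05e-05). H1F0, the linker histone of resting cells, was at 20814 and 29152 with SB and 18304 and 17715 after 7 days and fell by 0.45 (adjusted p = 0.00915), and H2AFZ fell by 0.23 (adjusted p = 0.0238). H3F3B, which encodes H3.3, was at 14457 and 12694 with SB, 16917 and 16317 after 3 days and 13873 and 14073 after 7 days; it was higher at 3 days (0.29, adjusted p = 0.0212) and did not pass at 7 days (0.04, adjusted p = 0.675).

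The histone chaperones, which bring new histones to DNA or hold them in store, were lower in most cases after 7 days. Of 21 tested, 2 were higher and 7 lower after 3 days (14.9% and 14% of all genes tested). After 7 days 2 were higher and 15 lower (27.7% and 26.9% of all genes tested). The medians were -0.17 and -0.40. Between SB and 7 days, CHAF1A, the large subunit of the chromatin assembly factor of replication, fell by 0.84 (adjusted p = 3.37e-05). Its partner CHAF1B fell by 1.08 (adjusted p = 3.68e-06), ASF1B, which carries H3 and H4, by 0.84 (adjusted p = 1.66e-05), TONSL, which binds new histones behind the replication fork, by 1.24 (adjusted p = 3.97e-05) and NASP, a store of H3 and H4, by 0.58 (adjusted p = 8.25e-05). The pair that rose were ATRX, which places H3.3 in heterochromatin (0.84, adjusted p = 2.59e-05), and UBN1 of the HIRA complex (0.41, adjusted p = 0.00275).

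The S phase signature of the study moved opposite to the 4 rising histone genes. Of the 16 members tested, 10 were not called at 7 days against SB, as were 6544 of all 14395 genes tested. Of the 42 signature genes tested, 0 were higher and 27 lower after 3 days against SB (14.9% and 14% of all genes tested). After 7 days against SB 1 was higher and 40 were lower (27.7% and 26.9% of all genes). From 3 to 7 days 1 was higher and 38 were lower (17% and 16.2% of all genes). The medians of the signature were -0.33, -0.81 and -0.50. The gene that rose at 7 days was CASP8AP2, and SLBP, NASP and CHAF1B are also part of this signature. The part of the change in S phase cells, of SLBP or of poly(A) selection in the histone values was not tested, and in bulk RNA a change in the share of cells that express a gene and a change in the amount per cell cannot be told apart.

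**Figure D4:**
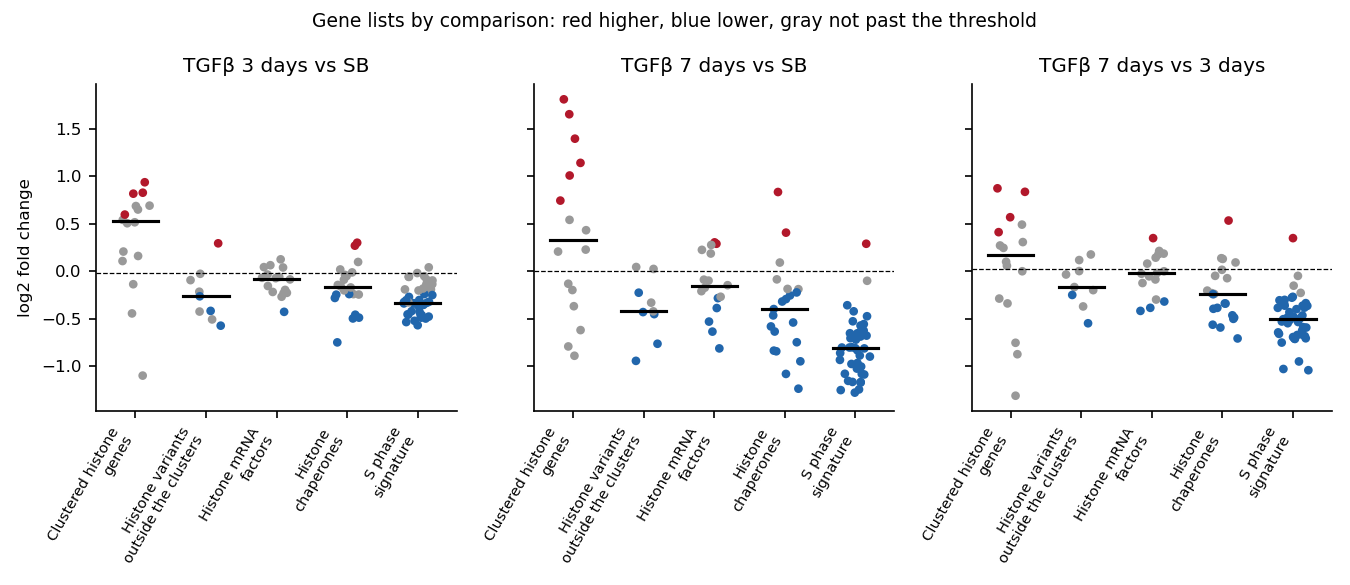
Log2 fold change of each tested gene of the clustered histone genes and of the lists of variants outside the clusters, histone mRNA factors, chaperones and S phase genes in the 3 comparisons, with red for higher and blue for lower at an adjusted p under 0.05, bars for the list medians and a dashed line for the median of all genes tested. At 7 days against SB the medians were 0.33 for the clustered genes and -0.81 for the S phase signature.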

How the data were processed

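Per the study's methods, libraries were made with the TruSeq RNA Sample Prep Kit. The authors aligned paired reads to hg19 with STAR, counted uniquely mapped reads per gene with HTSeq 0.6.1p1 and normalized for library size with DESeq2. The methods name neither poly(A) selection nor strand, which are taken here from the kit. The deposited values are these normalized counts rounded to whole numbers, recorded as a score and not as raw counts, so no count model was used. The kit does not mark strand.

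On log2(value + 1), limma 3.58.1 (R 4.3.3) was run over genes whose mean reached 10, with group as the only term, all 6 libraries and an empirical Bayes trend, adjusted by Benjamini-Hochberg at 0.05. A fold change on this scale understates that of low genes. With 2 libraries per group p-values rest on the spread pooled over genes. What 1 read was worth was estimated from gaps among low values and covers counting error only. The steps were tested on simulated data.

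Of the 58 genes, 55 were matched to GENCODE on GRCh37, which gave positions. Windows of 150 bases before the canonical start were taken for the 54 of them that are protein-coding. Single values were given for the 10 highest members and the 5 largest rises and falls between 7 days and SB past the threshold. HIST2H2BF, HIST2H2AC, HIST1H2AH, HIST1H2BN, HIST1H1E and HIST2H2BC were added after their values were seen. Members and lists were chosen with earlier results of these data known.

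The alternatives were pseudocounts of 0.5 and 5, no filter, a mean of at least 50, other scalings, no trend, only the 4 libraries compared, a replicate block, and each library left out.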

Additional observations from a re-analysis of the deposited data

Results flagged for a closer look

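Of the clustered histone genes, 4 differed between 7 and 3 days of TGFβ in the limma comparison already given above. SB was sampled at 3 days only, so longer time in culture cannot be told apart from longer TGFβ. The difference was 0.87 on the log2 scale for HIST1H2AC, 0.84 for HIST1H2BD, 0.57 for HIST2H2BE and 0.41 for HIST1H2BK, each higher in both 7-day libraries than in both 3-day libraries. Of all genes tested, 17% were higher in this comparison. The call of HIST2H2BE was lost whichever TGFβ library was left out, and that of HIST1H2BK without some of them.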

How the results depend on the processing

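At 7 days against SB, HIST1H2BK, HIST1H2BD, HIST2H2BE and HIST1H2AC were called higher in all 16 alternatives, with log2 fold changes of 0.88 to 1.14, 1.58 to 1.73, 1.35 to 1.44 and 1.74 to 1.88. With no filter on low values, 1 member was called lower at 3 days against SB (HIST1H3A), 2 were at 7 days against SB (HIST1H3A and HIST1H4C), and 2 in place of 4 were called higher from 3 to 7 days, as HIST1H2BK (adjusted p = 0.0549) and HIST2H2BE (0.0557) were lost. Without the trend, 1 was called lower at 7 days against SB (HIST2H2AC), HIST2H2BC was called higher there (adjusted p = 0.0263), HIST1H2BK was lost from 3 to 7 days (adjusted p = 0.0582) and HIST1H4H at 7 days against SB (0.0572; with equal library totals 0.0620, with no filter 0.111); HIST1H2AG was lost with no filter (0.0603). With a pseudocount of 5, median-of-ratios size factors or only the 4 libraries compared, 1 was called lower from 3 to 7 days (HIST2H2BF). For members with a mean of at least 50, the medians were 1.203 at 7 days against SB and 0.49 from 3 to 7 days, over 6 genes. With no filter they were 0.17 and 0, over 52 genes. Leaving out a library gave 0 to 2 members called lower at 7 days against SB (2 without SB replicate 2), 0 to 1 lower and 2 to 4 higher from 3 to 7 days, and a median at 3 days of 0.10 (without SB replicate 2; 0.23 without 3-day replicate 2) to 0.75. The causes were not tested.

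The libraries share only a replicate number: over 14395 genes, the deviations of same-numbered libraries correlated at 0.14 between SB and 3 days, -0.10 between SB and 7 days and -0.29 between 3 and 7 days. With the number as a replicate block, 1 member was called lower from 3 to 7 days, HIST2H2BF at -1.31 (adjusted p = 0.0295).

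Leaving out a library turned the sign of some log2 fold changes, none of them called with all libraries. At 3 days against SB the ranges were -0.57 to 0.29 for HIST2H2AC, -0.36 to 1.37 for HIST1H1E, -1.16 to 0.27 for HIST1H3D, -0.064 to 0.28 for HIST1H1C and -0.13 to 0.55 for HIST1H2BO. At 7 days against SB they were -1.24 to 0.50 for HIST1H1E and -0.0015 to 0.46 for HIST1H2BJ. From 3 to 7 days they were -0.10 to 0.30 for HIST1H1C (-0.07 without 3-day replicate 1), -0.47 to 0.96 for HIST1H3D, -0.71 to 0.14 for HIST1H2BJ, -0.26 to 0.37 for HIST1H4H and -0.19 to 0.81 for HIST1H2BN. The 42 members under a mean of 10 were tested only with no filter.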
